A study of Nematostella vectensis with 17 samples.

Results

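The 10 libraries described here are the RNA-seq libraries of Nematostella vectensis gastrula embryos injected with a brachyury morpholino, 4 with the splice-blocking and 6 with the translation-blocking oligomer, out of 17 samples in the series. They were chosen by the morpholino recorded for each sample, and not by any measured value. The other samples were 4 RNA-seq libraries of embryos injected with a control morpholino, used here for the spread and for the control level, and 3 ChIP-seq samples, not used here. Polyadenylated RNA of whole embryos raised at 21 °C was sequenced from one end to 50 bp, and the labels describe biological replicates. Both brachyury morpholinos were injected as 3 to 5 pl at 500 µM, while no dose is recorded for the control. The protocol states 6 replicates per group, of which 4 splice libraries were analysed here. Strain, genotype and the number of embryos in each library were not given in the sources used here.

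Brachyury is a T-box transcription factor, a protein that binds DNA and changes the transcription of its target genes. In Nematostella, a sea anemone with an outer ectoderm and an inner layer formed at gastrulation, brachyury is expressed around the blastopore, the opening through which the inner layer moves in. Morpholinos are antisense oligomers with a synthetic backbone, which pair with an RNA without cutting it. A translation blocker covers the start of the reading frame, so the protein is not made while the RNA may persist, and a splice blocker covers an exon-intron boundary of the unspliced RNA and so acts on newly made transcripts only. Embryos also carry RNA from the egg, which a splice blocker does not reach when it is already spliced.

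The oligomer injected is what sets the groups apart, and so both sequences are shown 5′ to 3′. In the translation blocker the capitals mark its only CAT triplet, which pairs with an ATG. The splice blocker also holds 1 CAT triplet, starting at base 16, which is not marked. No part of the splice blocker is in capitals because the exon boundaries of the gene were not used here.
BraATGMO: tcgtccgagtgCATgtccgactatg
BraSpliceMO: tccctggttgtcaaccataccgtcc
Each is 25 bases long with 14 G or C bases, and their longest common run is 5 bases. Length and the number of G or C bases were thus equal, while the sequences are different.

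The splice libraries held 14873801 to 16096648 counts and the translation libraries 12289649 to 32175949, and the number of genes with a count differed little. Thinned to the lowest of these totals, the splice libraries held 24596 ± 127 genes (SD, n = 4) and the translation libraries 24596 ± 124 (SD, n = 6), a difference of 0.29 genes (two-sided exact permutation p = 0.995). The 100 most abundant genes took 18.5%, 16.8%, 16.9% and 20.2% of the counts in splice libraries 1 to 4 and 15.9% to 17.5% (median 16.6%) in the translation libraries. The ranges overlapped, with splice libraries 1 and 4 above every translation library. The difference of 1.51 percentage points had a two-sided exact permutation p of 0.043, and 0.34 after Benjamini-Hochberg adjustment over the 8 library measures compared. Without splice library 4 the difference was 0.81 percentage points (two-sided exact permutation p = 0.15). No gene names are paired with the identifiers, so neither brachyury itself nor any tissue marker was checked in these libraries.

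Embryos with the splice morpholino differed from embryos with the translation morpholino in 2825 of 22109 genes, which was 12.8% of those tested. Of these, 1435 (6.49% of those tested) were higher and 1390 (6.29%) lower with the splice morpholino. Most differences were modest. The median log2 difference was 0.72 for genes that were higher and -0.65 for those that were lower, and 457 and 578 of them stayed under 1.5-fold. Differences over 2-fold numbered 604 (2.73% of those tested), and 18 higher and 26 lower genes differed over 4-fold. The calls are those of edgeR's quasi-likelihood test at a Benjamini-Hochberg adjusted p under 0.05 over all genes, with the spread taken from all 14 libraries. The count was 1862 when the 4 controls were left out, 1650 without splice library 1 and 1572 without splice library 4. In whole embryos, fewer cells that express a gene and less of its RNA per cell cannot be told apart.

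**Figure D1:**
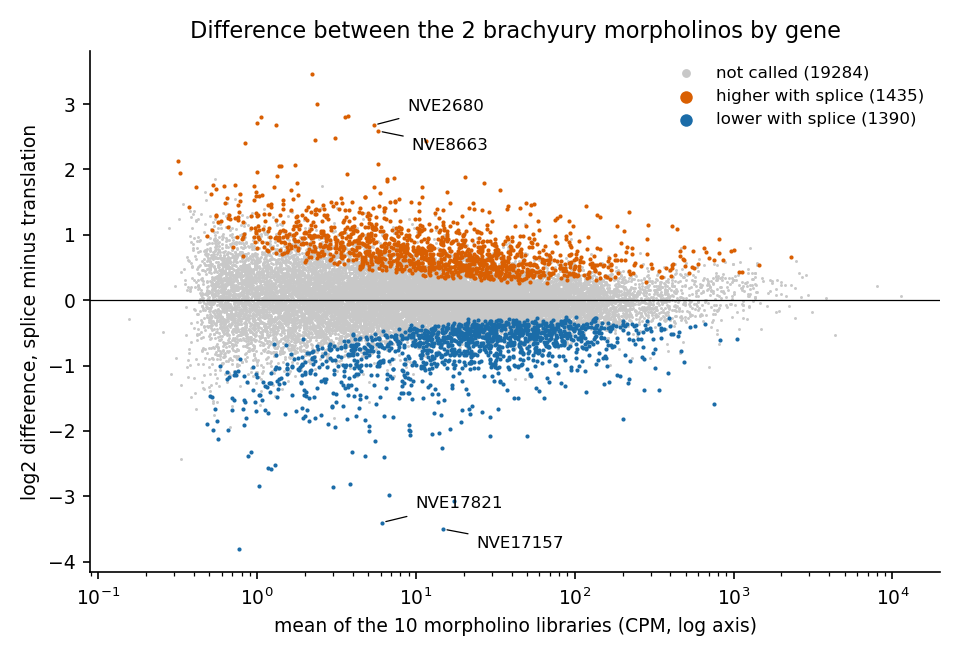
Each point is 1 of the 22109 tested genes, with its mean over the 10 morpholino libraries in TMM-scaled CPM (log axis) against its log2 difference, splice minus translation. Orange points are the 1435 genes called higher and blue points the 1390 called lower, and the 4 labelled genes are those given library by library in the text.

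Differing genes were found at all levels of expression, and their direction moved with the level. Levels are in CPM, counts scaled by TMM to a common library total. Among 1817 genes with a mean under 1 CPM, 87 were called (4.79%), among 8346 genes at 1 to 10 CPM 899 (10.8%), among 9874 genes at 10 to 100 CPM 1556 (15.8%), and among 2072 genes over 100 CPM 283 (13.7%). Genes under 1 CPM were 51 higher and 36 lower with the splice morpholino, genes at 1 to 10 CPM were more often higher (557 and 342), and genes at 10 to 100 CPM more often lower (710 and 846). The split over 100 CPM was 117 higher and 166 lower. Among calls over 2-fold, the splits were 43 and 35 under 1 CPM and 184 and 155 at 1 to 10 CPM. They were 81 and 80 at 10 to 100 CPM, which is nearly even, and 9 and 17 over 100 CPM. Over all tested genes the median log2 difference was 0.09 under 1 CPM, 0.05 at 1 to 10 CPM, -0.01 at 10 to 100 CPM and -0.01 over 100 CPM. Scaled by library size alone, the splits of all called genes were 424 and 339, 543 and 890, and 107 and 208 for the 3 upper classes. Each was in the same direction as with TMM, and 43.1% of all calls were higher, in place of 50.8%.

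Few of the 100 most abundant transcripts were called, though their median difference lay above that of all genes. Of the 100 most abundant genes, all with a mean of at least 988 CPM, 5 were higher and 1 lower by edgeR, also when scaled by library size alone. This was 6% of them, against 12.8% of all tested genes. The log2 differences of these 100 genes ran from -0.60 to 0.79 with a median of 0.18, against a median of 0.01 over all tested genes. The 1000 most abundant genes, down to a mean of 176 CPM, were called at a rate of 12.7%, close to the 12.8% of all tested genes.

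At the other end, no tested gene had 0 counts in all 4 splice libraries or in all 6 translation libraries. Below 1 CPM in every splice library and more than 2-fold lower there were 58 called genes. Below 1 CPM in every translation library and more than 2-fold higher with the splice morpholino were 47. Both counts are out of 22109 tested genes, and how many of these lay below 1 CPM in every library of a group was not counted. The low-count filter can keep a gene for its level in the other libraries alone, so the counts are a description only.

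For 2348 genes (10.6% of those tested) the 4 splice libraries and the 6 translation libraries did not overlap in CPM, 1145 with every splice library above and 1203 with every splice library below. Of these, 1883 were also called, which is 66.7% of the called genes. Without splice library 2 the number of genes with no overlap was 3542, though leaving out a library can only keep or raise this number. The splice libraries resembled each other with a Pearson r of log2 CPM across genes of 0.969 to 0.980 and the translation libraries with 0.963 to 0.984, while pairs of 1 splice and 1 translation library reached 0.940 to 0.981. These correlations describe the libraries over the same genes, and the ranges within and between groups overlapped. Splice library 2 was closest to translation library 2 (r = 0.981) and not to a splice library, and the title numbers of this pair are consecutive. Translation library 4 was the least like the splice libraries, with a median r of 0.943. The biological coefficient of variation, the spread of a gene between libraries beyond counting error, was 21.4% among the splice and 21.5% among the translation libraries, against 19% among the controls.

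Among called genes with a mean of at least 5 CPM and no overlap between the groups, 663 were higher with the splice morpholino and 828 lower, and the 2 with the highest and the 2 with the lowest log2 difference are given by library. NVE2680 had the highest difference among them. It stood at 14.9, 13.9, 4.12 and 11.4 CPM in splice libraries 1 to 4 and at 0.47 to 2.88 CPM (median 1.63) in the 6 translation libraries. Splice library 3 was the low one of its group. For all 4 named genes, the rule fixed in advance that the splice and translation libraries did not overlap. The 4 controls held 12, 9.32, 9.09 and 8.55 CPM, within the range of the splice libraries and above all translation libraries. NVE2680 was 6.39-fold higher with the splice than with the translation morpholino (log2 difference 2.68 ± 0.35 (SE), edgeR adjusted p = 0.00022). Against control the log2 difference was -2.50 ± 0.35 with the translation morpholino (edgeR adjusted p = 0.00019) and 0.18 ± 0.36 with the splice morpholino (edgeR adjusted p = 0.81).

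NVE8663 showed the other arrangement, with the splice libraries apart from the rest. It held 15.6, 13.2, 8.62 and 9.01 CPM in splice libraries 1 to 4 and 1.28 to 2.45 CPM (median 2.04) in the translation libraries. All 4 splice libraries were several times higher than any translation or control library. The controls held 1.05, 0.86, 1.45 and 1.32 CPM, and their range overlapped that of the translation libraries. The log2 difference between the morpholinos was 2.59 ± 0.22 (SE, edgeR adjusted p = 7.2e-06). Against control, NVE8663 was higher by 3.32 ± 0.26 with the splice morpholino (edgeR adjusted p = 2.8e-06) and by 0.73 ± 0.25 with the translation morpholino (edgeR adjusted p = 0.047).

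NVE17157 had the lowest difference of these genes. Its level was 1.84, 3.35, 2 and 0.99 CPM in splice libraries 1 to 4 and 13.4 to 42.8 CPM (median 20.7) in the translation libraries, with the highest value in translation library 4. Every translation library lay well above every control library and, as the rule requires, above every splice library. The splice and control libraries overlapped. The controls held 3.77, 4.69, 1.16 and 1.62 CPM. NVE17157 was 11.3-fold lower with the splice morpholino (log2 difference -3.50 ± 0.43 (SE), edgeR adjusted p = 0.00015). With the translation morpholino it was higher than control by 3.02 ± 0.41 (edgeR adjusted p = 0.00016), and with the splice morpholino its log2 difference from control was -0.48 ± 0.45 (edgeR adjusted p = 0.56).

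NVE17821 moved away from control in both directions. It held 1.33, 0.87, 0.87 and 0.50 CPM in splice libraries 1 to 4, 3.73, 2.41, 2.20 and 2.18 CPM in the controls, and 5.26 to 17 CPM (median 8.26) in the translation libraries. The groups formed 3 steps without overlap. The rule required this only of the splice and translation libraries, and the controls lay between them. The log2 difference between the morpholinos was -3.40 ± 0.36 (SE, edgeR adjusted p = 4.2e-05). Against control it was lower by 1.58 ± 0.38 on the log2 scale with the splice morpholino (edgeR adjusted p = 0.014) and higher by 1.83 ± 0.31 with the translation morpholino (edgeR adjusted p = 0.00083). Over all genes, 11% were called with the splice morpholino against control and 20.1% with the translation morpholino. These comparisons share the same 4 control libraries. They set 4 splice but 6 translation libraries against them, so the rates are not like for like.

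**Figure D2:**
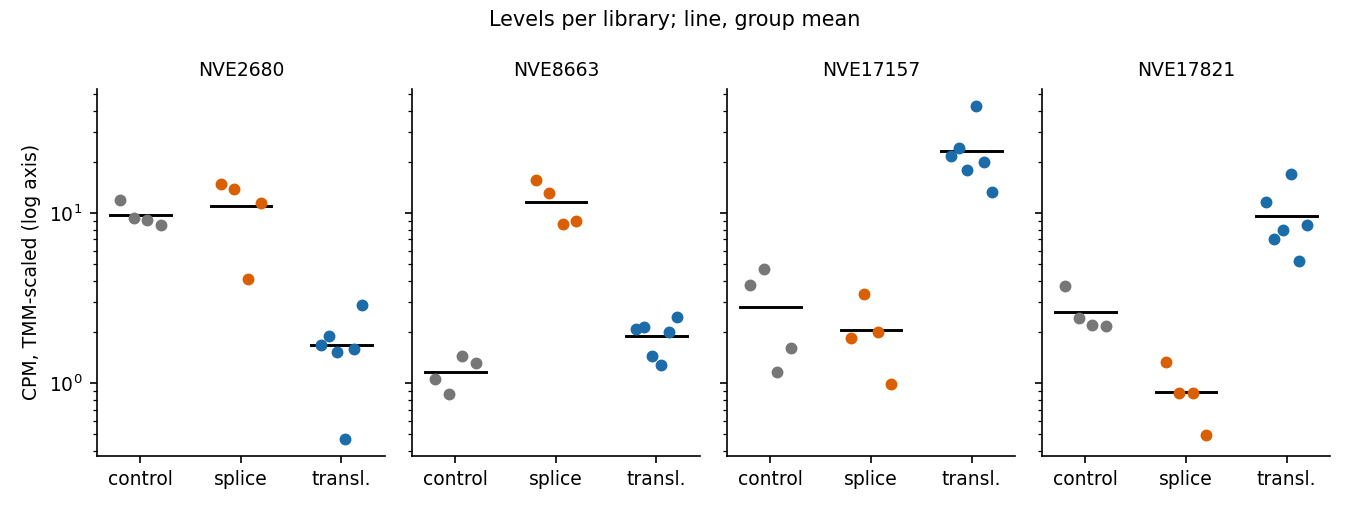
TMM-scaled CPM (log axis) of the 4 genes in each of 4 control, 4 splice and 6 translation libraries, 1 point per library, with the group mean as a line. The control libraries of NVE2680 and NVE17157 lie beside the splice libraries, those of NVE8663 beside the translation libraries, and those of NVE17821 between both.

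The 20 highest genes by the same rule had log2 differences of 1.48 to 2.68 and a median mean level of 7.36 CPM, and the 20 lowest had -1.82 to -3.50 and 10.9 CPM. Translation library 4 was the most extreme translation library for 14 of the 20 highest, where it was the lowest, and for 15 of the 20 lowest, where it was the highest. The ranking used this library and so favours genes where it is extreme, and the share over all called genes was not counted. Without translation library 4, 2116 genes were called. The 4 named genes kept their direction and passed the threshold without it and without each other library in turn. Their log2 differences were then 2.49 to 2.95 for NVE2680, 2.41 to 2.71 for NVE8663, -3.84 to -3.24 for NVE17157 and -3.66 to -3.16 for NVE17821. These genes were chosen as extreme ones with every library included, so this is no independent check.

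The level in control embryos was set beside each difference, as a description. Called genes were selected for a gap between the morpholino means. A control mean can fall inside a wider gap more often for that reason alone. Among the 1435 genes called higher with the splice morpholino, the control mean of log2 CPM lay between the means of both morpholinos for 932 (64.9%), above both for 347 (24.2%) and below both for 156 (10.9%). It was nearer the splice than the translation mean for 948 of them (66.1%), against 54.7% of all tested genes with a difference in that direction. The median log2 difference from control of these 1435 genes was 0.22 with the splice and -0.46 with the translation morpholino. Genes called lower were divided evenly. The control mean lay between for 898 of 1390 (64.6%), and it was nearer the splice mean for 674 (48.5%), against 51.2% of all tested genes in that direction. Scaled by library size alone, the control was nearer the splice mean for 72% of the higher calls, against 62.1% of all tested genes in that direction, and for 42.8% of the lower calls, against 42.4%. With TMM scaling, the median log2 difference from control of the 1390 lower genes was -0.31 with the splice and 0.30 with the translation morpholino. Among genes that differed over 2-fold, the control was nearer the splice mean for 211 of 317 higher and 133 of 287 lower genes.

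**Figure D3:**
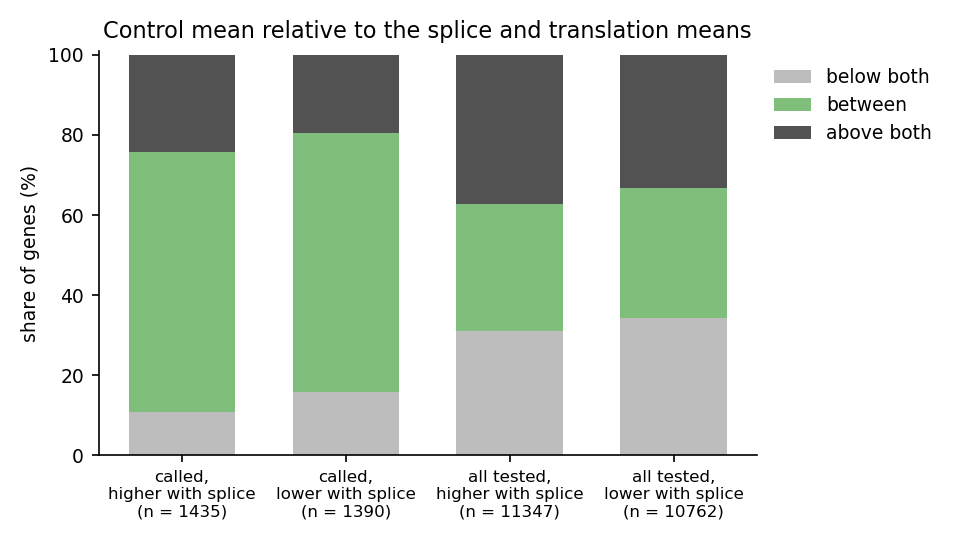
Share of genes (%) for which the mean of the 4 control libraries lay below both morpholino means, between them or above both, for genes called higher or lower with the splice morpholino and for all tested genes with a difference in each direction. The control mean lay between for 64.9% and 64.6% of the called genes, and for 31.8% and 32.4% of all tested genes. Called genes were selected for a gap between the morpholino means, so these shares are not like for like.

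Whether the difference held in a library that took no part in choosing the genes was read from refits that left out 1 library at a time. For each left-out library, its log2 CPM was placed on a scale with 0 at the translation mean and 1 at the splice mean of the remaining libraries, gene by gene. Over the genes called higher without it, the left-out splice library had a median position of 0.91, 0.62, 0.79 and 0.99 for libraries 1 to 4, and over the genes called lower 1.05, 0.62, 0.75 and 0.98. Splice libraries 1 and 4 thus reached about the full difference, and splice library 2 the least of it. The left-out translation libraries 1, 2, 3, 5 and 6 lay at 0.07 to 0.37 for the higher genes and at 0.03 to 0.21 for the lower genes. Translation library 4 lay beyond the mean of its group, at -0.58 and -0.34. All 10 libraries therefore fell on their own group's side of the midpoint in both sets of genes. Gene by gene, splice library 4 was on the splice side for 88.6% of the higher and 89.1% of the lower genes, and splice library 2 for 60% and 61.5%, against 62.7% and 51.6% of all tested genes for these libraries. The left-out controls lay at 0.66 to 0.75 for the higher genes and at 0.43 to 0.51 for the lower genes, nearer the splice end for the former and near the midpoint for the latter.

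**Figure D4:**
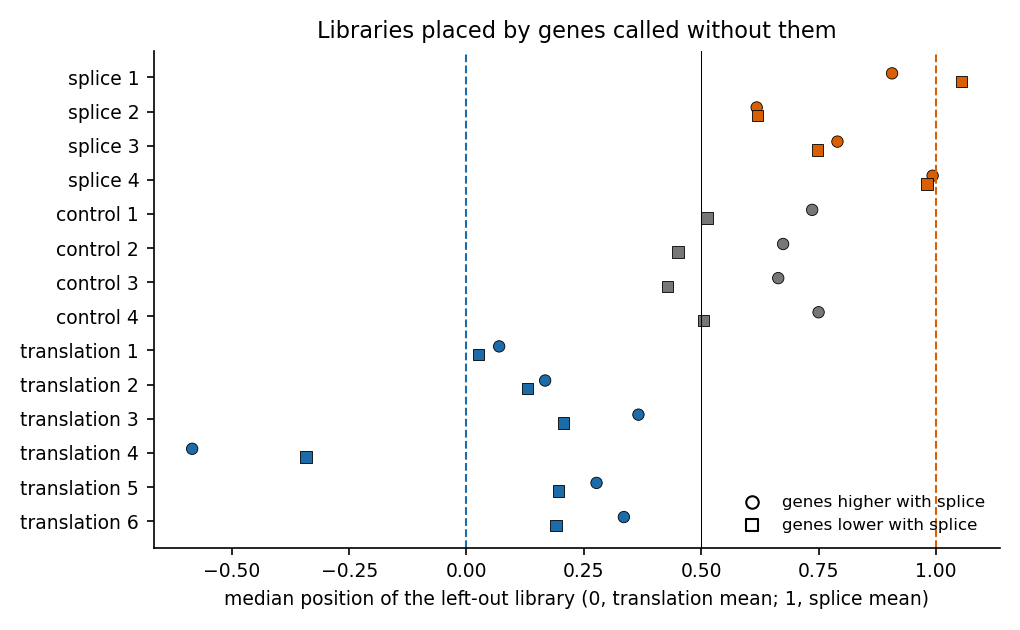
Median position of each left-out library over the genes called without it, on a scale from 0 (mean of the remaining translation libraries) to 1 (mean of the remaining splice libraries), with circles for genes higher and squares for genes lower with the splice morpholino. Splice libraries lie at 0.62 or above, 5 translation libraries between 0.03 and 0.37, translation library 4 below 0, and the controls between 0.43 and 0.75.

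The libraries carry title numbers, and earlier and later numbers gave separate comparisons with no library in common. Libraries numbered up to 52970 (3 splice, 3 translation, 2 control) gave 1015 calls by edgeR. The later ones (1, 3 and 2) gave 0 calls by edgeR and by limma-voom, with 3304 genes at an unadjusted p under 0.05 and 464 calls by DESeq2. For that single splice library the spread of the other groups had to be assumed. Of the 1013 earlier calls with a later value, 97.7% kept their sign there, against 69.5% of all 22162 genes with a value in each. The 495 higher genes had a median log2 difference of 0.85 in the earlier and 0.81 in the later libraries, and the 518 lower genes -0.85 and -0.93. The genes had not been selected on the later libraries, but the later sizes rest on splice library 4 alone and include translation library 4. Without translation library 4, 95.9% of 1011 earlier calls kept their sign, against 66.5% of all 22148 genes tested in both. The median difference in the earlier direction was then 0.68, in place of 0.855 with it. In the earlier libraries the median size was 0.852, so the later sizes were similar only with translation library 4 included. NVE2680 had a log2 difference of 2.69 in the earlier and 2.70 in the later libraries, NVE8663 2.71 and 2.20, NVE17157 -3.14 and -4.67, and NVE17821 -3.10 and -4.36. The named genes were chosen over all the morpholino libraries, the later ones included, so their later values are no independent check. Across these 22162 genes, the log2 differences had a Pearson r of 0.53, which is across genes that are not independent replicates.

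**Figure D5:**
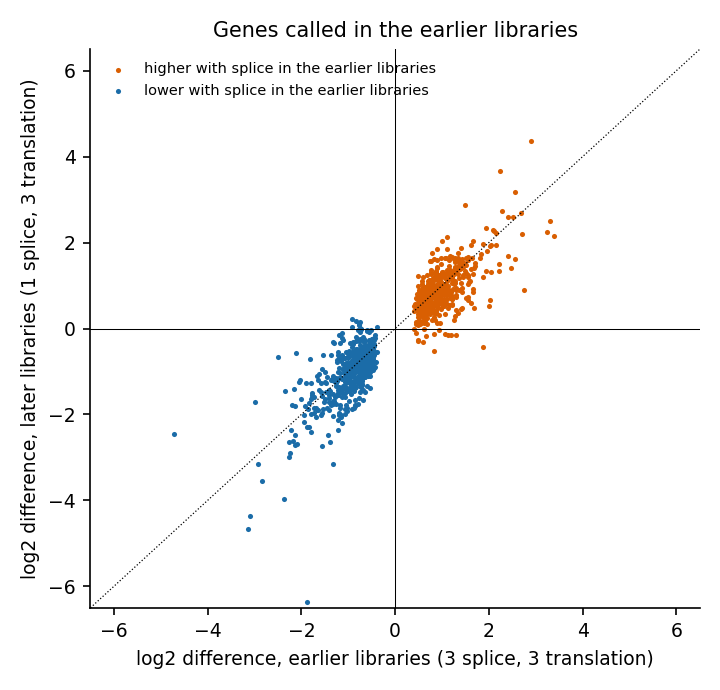
Log2 difference, splice minus translation, of the 1013 genes called in the earlier libraries (horizontal axis) and measured in the later libraries (vertical axis), with the dotted line at equality. Of these genes, 97.7% lie in the upper right or lower left quadrant.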

How the data were processed

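The authors deposited raw counts for 25729 gene models in each library. A further 92 spike-in rows, with a sum of 0, were dropped. Roles are not stated for the tools in the submitters' processing notes, which are BWA, DESeq2 1.6.0, Subread 1.6.2, featureCounts, STAR 2.5.3a and cutadapt 1.8.1. Annotation and strand setting were not given in the sources used here. Overlapping, antisense and near-identical genes were therefore not told apart. The authors' deposited normalized values, read as a score, served for an alternative scaling. Every column of per-sample values had a sample (0 had none). The files pair identifiers with no names, and 0 were found in RefSeq's table for jaNemVect1.1, so only 2 identifiers per direction are given.

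Genes were kept by filterByExpr and tested with edgeR 4.0.16 in R 4.3.3 (TMM, 3 group means, quasi-likelihood test, 11 residual degrees of freedom, two-sided). DESeq2 1.42.0 and limma 3.58.1 were alternatives. Standard errors are the absolute log2 difference divided by the square root of F, and a prior count of 2 was added for log2 CPM. Named genes are the 2 highest and 2 lowest called genes at a mean of at least 5 CPM without overlap. The gene-level fit was tested on simulated data. All 21 pairs of libraries within the groups differed by more than sampling noise (chi-square per degree of freedom 8.24 to 53.7). The members, rules and tests were chosen with earlier results of these data known.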

Additional observations from a re-analysis of the deposited data

Results flagged for a closer look

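In each group, the highest and lowest library were compared with the nearest other library for 30 sets of values, and 5 stood apart by Dixon's ratio of the gap to the whole range. Chance flags about 1 set in 20, which is 1.5 of 30. Translation library 4 accounted for 3 of the 5. Its median position stood apart for the genes higher with the splice morpholino (gap over range 0.688, at -0.58 where the nearest library lay at 0.07) and for the lower genes (0.67, at -0.34 and 0.03). These 2 sets rest on the same library and scale. It also stood apart in log2 CPM of NVE2680 (0.65), at 0.47 CPM where the next translation library held 1.53. The remaining 2 concern depth, with translation library 6 at 32175949 counts (0.639 on the log10 scale) and control library 1 at 80132810 (0.863). The part of these libraries in the results was measured by leaving each one out.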

How the results depend on the processing

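Counts of differing genes stayed within 1.5 times 2825 under RLE, TMMwsp, library size and the authors' size factors, DESeq2, limma-voom, both low-count filters and the title number as covariate. A 1.5-fold minimum left 156 genes (35.3% higher), and adjusted p thresholds of 0.01 and 0.1 gave 982 (45.3% higher) and 4478. The 10 libraries alone gave 1862 (47.6% higher), title numbers up to 52970 gave 1015 and later ones 0. The share higher was 43.1% with library size only. Leaving out 1 library gave 1572 to 2921 genes, of which 47.5% to 51.3% were higher. Genes without overlap then numbered 2531 to 3542, a count that leaving out a library can only keep or raise. Coefficients of variation were 20.4% to 22.2% (splice) and 19.5% to 22.9% (translation). The difference in genes detected changed sign, between -38.1 and 59 genes, and at 10 counts it was 51.8. In the later libraries alone the 4 named genes missed the threshold (edgeR adjusted p = 0.13 to 0.15). The cause of these shifts was not tested, beyond the fewer libraries or stricter limits that define them.

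Consecutive title numbers join 4 pairs of 1 splice and 1 translation library. Their deviations from the group means correlated at 0.39, 0.44, 0.29 and -0.03. Splice libraries 1 to 3 each correlated best with the translation library numbered next to them, and splice library 4 with translation library 6 (0.33). The labels name no pairs and the main test was unpaired, so what libraries with consecutive numbers share was not modelled in it. On these 8 libraries the replicate block gave 2840 genes and no block 1863. The block, the authors' size factors and the 4 against 4 comparison were chosen after seeing the data.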

Other observations

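A gene was called somewhat more often when the gene with the preceding identifier number was called. Of 19117 pairs of tested genes whose identifier numbers differ by 1, both were called in 457, in the same direction in 304 (128 higher and 176 lower with the splice morpholino) and in opposite directions in 153. The gene after a called gene was called in 18.3% of cases, and the gene after one that was not called in 12.2%. Over all tested genes the rate was 12.8%. Whether consecutive identifiers are neighbours in the genome, overlap or are near-identical copies that share reads was not analysed here.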
